A study of Homo sapiens with 6 samples.

Results

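The phagocyte NADPH oxidase is a membrane enzyme that passes electrons from NADPH to oxygen and makes superoxide, the first product of the respiratory burst of neutrophils and macrophages. Its catalytic core is a membrane dimer, flavocytochrome b558, which is built from CYBB (gp91phox, also called NOX2) and CYBA (p22phox). In resting cells the organizer NCF1 (p47phox) and NCF4 (p40phox) sit in the cytosol. On stimulation NCF1 is phosphorylated and carries the cytosolic complex to the membrane, where the small GTPase RAC2, or RAC1 in monocytes, completes the enzyme. Loss of function of the core or cytosolic subunits causes chronic granulomatous disease.

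The genes described are 5 of these subunits, CYBA, CYBB, NCF1, NCF4 and RAC2, found by gene symbol among the 33981 genes of a count table of THP-1 cells. THP-1 is a human monocytic cell line from an acute myeloid leukemia. All 6 samples were THP-1 cells transduced with lentivirus on retronectin and sorted for GFP 4 days later. In 3 of them the vector carried a scrambled shRNA, and in the other 3 it carried an shRNA against the transcription factor NFIC (NFIC KD). The comparison addressed how a knockdown of NFIC alters gene expression in AML cells. The study's figure legend names 1 shRNA for it, so effects of that shRNA and of less NFIC cannot be told apart. The labels give the control as scrambled shRNA, which is followed here, although the methods of the study speak of a vector with GFP alone. The samples come from 1 cell line, and separate cultures are not stated, so p-values measure the spread between these samples, which may be technical. In bulk RNA, fewer cells of a kind and less RNA per cell cannot be told apart.

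Libraries held 20369543 to 24809720 counts, and a floor of 3 counts equals 0.121 to 0.147 CPM, depending on the sample. CPM are counts scaled to a library of 1000000 counts with the TMM factors of edgeR. This floor covers counting error only. NFIC itself fell from 41.9 ± 0.445 to 21.0 ± 1.52 CPM (SD, n = 3), a log2 fold change of -0.99. Of the 9 monocytic markers examined, all were tested, 4 were higher and 4 were lower in NFIC KD cells, with a summed level of 1696 to 1812 CPM in scrambled and 1769 to 1937 CPM in NFIC KD samples. The summed T cell markers lay at 1.62 to 1.96 and 0.388 to 0.776 CPM, the B cell markers at 8.37 to 9.39 and 4.46 to 5.59 CPM, the megakaryocyte markers at 7.72 to 8.13 and 2.57 to 2.89 CPM, and the fibroblast markers at 4.72 to 5.89 and 1.55 to 2.12 CPM. Erythroid markers did not exceed 0.173 CPM in any sample, and none of their genes was tested. Among the neutrophil granule genes, ELANE and PRTN3 were abundant in this line. The sum over that list, mostly ELANE and PRTN3, was 2536 to 3171 CPM in scrambled and 1626 to 1712 CPM in NFIC KD samples. CAMP and MMP8 did not exceed 2.10 and 0.433 CPM in any sample. LTF, like CD3D and HBB, had no counts in 5 of the 6 samples. All 3 granule genes that were tested were lower. MMP8, under the filter on low counts, had 0, 5 and 2 counts in scrambled and 8, 6 and 10 in NFIC KD samples. These marker counts stand beside 29.6% of all genes tested that were higher and 30.3% that were lower. The part of the marker shifts in the results on the oxidase was not tested.

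The sequence of NCF1 bears on how its counts can be read. NCF1 (ENSG00000158517) has 11 exons on chromosome 7 of GRCh38, from 74774011 to 74789315 on the plus strand. Its 2 pseudogene copies, NCF1B (73220646 to 73235787) and NCF1C (75156639 to 75172044), lie on either side of it on the same chromosome. The classic difference between the gene and the copies is a GT dinucleotide at the start of exon 2, which both copies lack. The stretches across the boundary of intron 1 and exon 2, shown because they hold this difference, were read from the hg38 reference. Capitals mark the GT repeat with which exon 2 opens, and the 10 bases before it are intronic.
NCF1 (chr7:74777257-74777286, plus strand): tttcccccagGTGTacatgttcctggtgaa
NCF1B (chr7:73223868-73223895, plus strand): tttcccccagGTacatgttcctggtgaa
NCF1C (chr7:75168693-75168720, minus strand): tttcccccagGTacatgttcctggtgaa
Over the 1349 exonic bases of the NCF1 transcript, NCF1B was identical at 1340 and NCF1C at 1339, and 5 and 4 of the 11 exons were unchanged. Of the 1250 windows of 100 bases in that transcript, 794 (63.5%) occur unchanged in a transcript of another gene. No such window was found in CYBA, CYBB, NCF4 or RAC2. How the authors' counting treated reads that map to several places is not given in the sources used here, so the split of counts among the 3 copies is uncertain.

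NCF1 rose 3.05-fold and RAC2 rose 1.35-fold in NFIC KD cells, whereas CYBA, CYBB and NCF4 did not pass the test. In edgeR's quasi-likelihood test 2 of the 5 subunits were higher, 0 were lower and 3 were not called at an adjusted p under 0.05. Of the 19182 genes tested, 59.9% were called, 29.6% higher and 30.3% lower, so that a count of 2 in 5 is not read as particular to the subunits. The share of all genes tested whose groups did not overlap was not computed. A lack of overlap given for a gene here is therefore a description, and is not read as particular to that gene. The median log2 fold change was 0.07 over the 5 subunits and -0.01 over all genes tested. NCF1 was also past a log2 fold change of 1, which 3.36% of all genes tested were in the upward direction.

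The membrane pair was measured first. CYBA (ENSG00000051523) spans 88643275 to 88651083 on the minus strand of chromosome 16. Its level was 326, 308 and 317 CPM in scrambled cells and 329, 350 and 313 CPM in NFIC KD cells. The groups overlapped, since the third NFIC KD sample lay inside the range of the scrambled samples. The means were 317 ± 9.03 and 331 ± 18.8 CPM (SD, n = 3), and the log2 fold change was 0.06 (SE 0.052, 95% interval -0.05 to 0.17, edgeR adjusted p = 0.330).

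CYBB (ENSG00000165168), the flavin- and heme-carrying subunit, has 13 exons on the plus strand of chromosome X, from 37780018 to 37813461. It was at 110, 82.8 and 104 CPM in scrambled cells and at 112, 99.8 and 98.8 CPM in NFIC KD cells. Scrambled replicate 2 was the low sample, and the other 5 lay close together. The log2 fold change of 0.07 (SE 0.092, interval -0.13 to 0.27, edgeR adjusted p = 0.538) turned to -0.05 without that sample. An adjusted p above the threshold does not show that the level of CYBA or CYBB was equal in the groups.

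Among the cytosolic subunits NCF1 stood apart from NCF4. NCF1, the organizer that binds CYBA, had 641, 785 and 729 counts in scrambled samples and 1906, 2057 and 2547 counts in NFIC KD samples. These are 29.6, 31.9 and 34.0 CPM against 92.5, 88.7 and 110 CPM. Each NFIC KD sample lay far above each scrambled sample, with the third the highest. The mean rose from 31.9 ± 2.21 to 97.2 ± 11.6 CPM (SD, n = 3). The fold change was 3.05 (95% interval 2.71 to 3.44), or 1.61 on the log2 scale (SE 0.081, edgeR adjusted p = 1.50e-10), and NCF1 ranked 138 among the 19182 genes tested by its log2 fold change.

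The copies rose with it. NCF1B was at 14.4 ± 1.77 CPM in scrambled and 51.4 ± 3.85 CPM in NFIC KD samples (SD, n = 3; log2 fold change 1.84, SE 0.088, edgeR adjusted p = 3.48e-11). NCF1C was at 19.0 ± 0.656 and 61.6 ± 3.70 CPM (log2 fold change 1.70, SE 0.070, edgeR adjusted p = 6.27e-12). Neither copy overlapped between the groups. When the 3 genes were summed before the fit, the levels were 62.6, 63.1 and 69.9 CPM against 204, 195 and 231 CPM. The summed log2 fold change was 1.69 (SE 0.067, edgeR adjusted p = 6.23e-12). This sum does not depend on how the counted reads were split among the copies, and it rose by about as much as NCF1 alone.

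NCF1 took 47.4%, 50.5% and 48.7% of the summed counts in scrambled cells and 45.3%, 45.5% and 47.7% in NFIC KD cells. The share ranges of the groups overlapped. Together the 95% Wilson intervals of these shares, which cover counting error only, spanned 44.7% to 53.0% in scrambled and 43.8% to 49.1% in NFIC KD cells. NCF1B took 20.5% to 23.4% in scrambled and 24.1% to 25.0% in NFIC KD samples, which did not overlap.

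**Figure D1:**
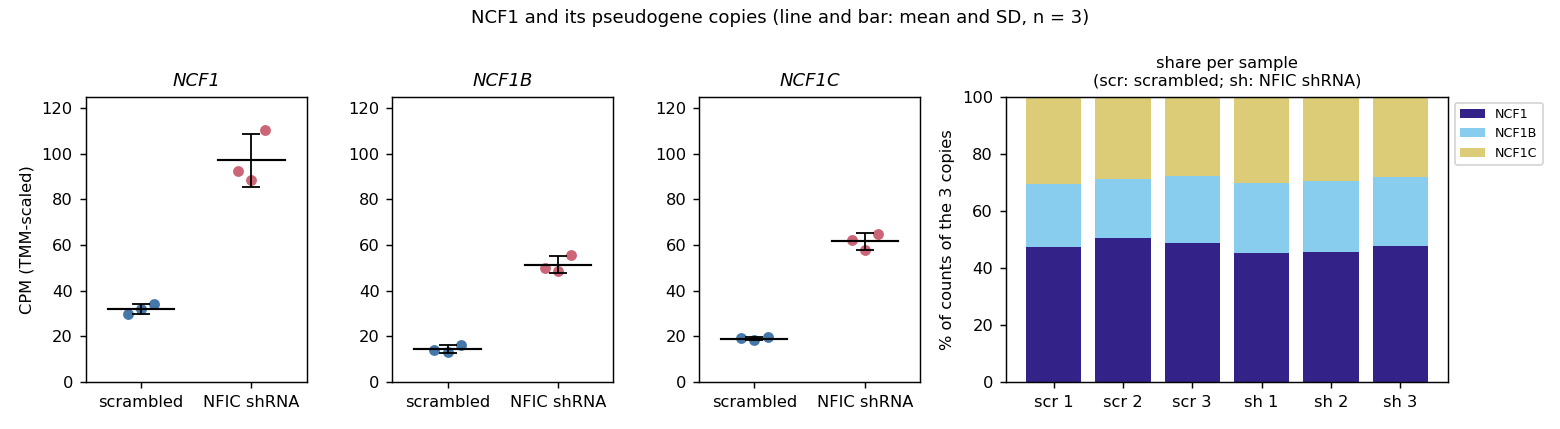
CPM of NCF1, NCF1B and NCF1C in the 3 scrambled and 3 NFIC shRNA samples (points; lines and bars are mean and SD, n = 3), and the share of each copy in their summed counts per sample. All 3 copies lay higher in each NFIC shRNA sample than in any scrambled sample, while NCF1 held between 45.3% and 50.5% of the counts in all 6 samples.

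NCF4 (ENSG00000100365), which binds phosphatidylinositol 3-phosphate on phagosomes, was at 106, 96.2 and 111 CPM in scrambled cells and 106, 111 and 100 CPM in NFIC KD cells. The groups overlapped over almost their whole ranges. The log2 fold change was 0.01 (SE 0.061, 95% interval -0.11 to 0.14, edgeR adjusted p = 0.858). The antisense gene NCF4-AS1 shares 27 of 2239 exonic bases with NCF4, and without a stated strand setting reads of that stretch cannot be told apart. NCF4-AS1 was at 18.0 ± 0.919 and 18.5 ± 1.26 CPM (SD, n = 3; edgeR adjusted p = 0.696).

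RAC2 (ENSG00000128340), the GTPase of the hematopoietic lineage, was at 277, 279 and 290 CPM in scrambled cells and at 362, 369 and 412 CPM in NFIC KD cells. The lowest NFIC KD sample was above the highest scrambled sample. The mean rose from 282 ± 6.91 to 381 ± 27.0 CPM (SD, n = 3). The fold change was 1.35, or 0.43 on the log2 scale (SE 0.055, 95% interval 0.32 to 0.55, edgeR adjusted p = 2.70e-06).

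**Figure D2:**
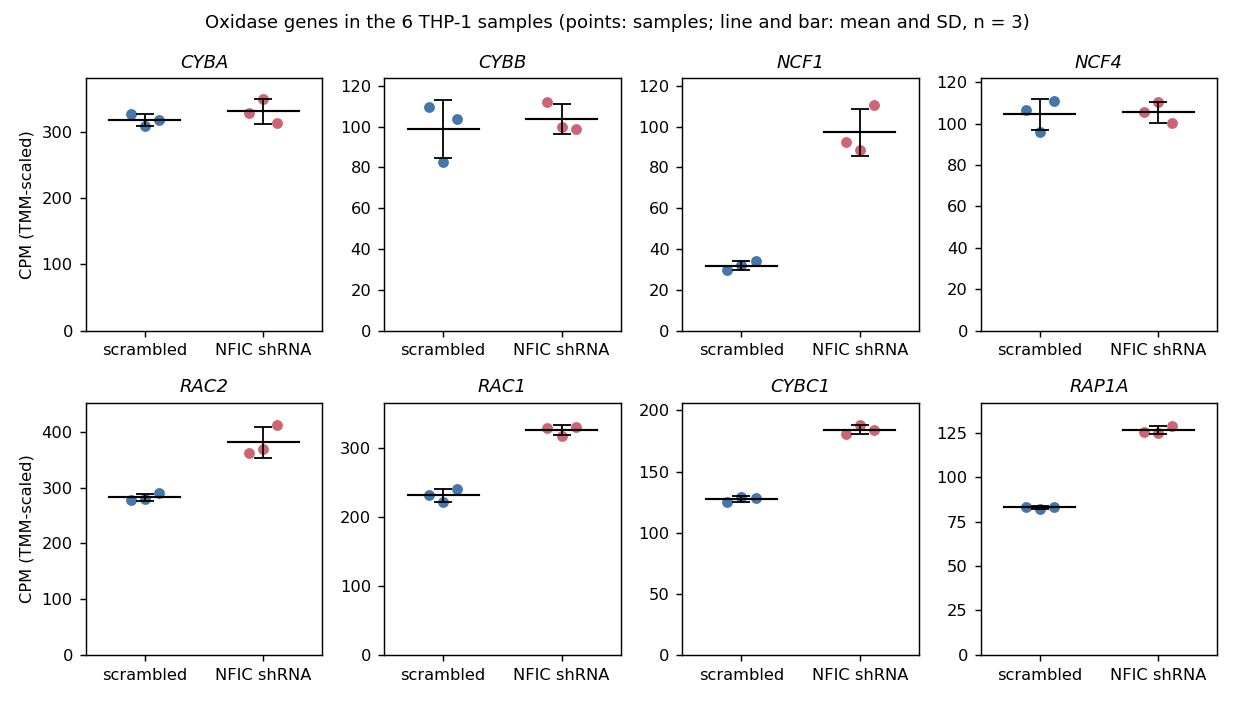
CPM of the 5 subunits and of RAC1, CYBC1 and RAP1A in the 3 scrambled and 3 NFIC shRNA samples, each on its own axis from 0 (points are samples; lines and bars are mean and SD, n = 3). NCF1, RAC2, RAC1, CYBC1 and RAP1A do not overlap between the groups, whereas CYBA, CYBB and NCF4 do. The share of all genes tested without overlap was not computed.

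Levels of different genes were compared as the deposited FPKM (fragments scaled by sequencing depth and gene length). In scrambled cells the order was RAC2 at 111 ± 3.02, CYBA at 96.3 ± 2.59, NCF4 at 46.1 ± 3.39, CYBB at 22.3 ± 3.17 and NCF1 at 8.93 ± 0.646 FPKM (SD, n = 3). In NFIC KD cells the order was RAC2 at 151 ± 11.7, CYBA at 102 ± 5.38, NCF4 at 47.0 ± 2.15, NCF1 at 27.6 ± 3.47 and CYBB at 23.6 ± 1.58 FPKM. On the deposited lengths NCF1 thus moved from the last place to beside CYBB, where their means differed by less than the sum of their SDs. The other neighbours in both orders differed by more than that. Among the 13800 protein-coding genes tested, the rank of NCF1 by mean FPKM went from 4549 to 1531, while CYBA went from 322 to 319 and CYBB from 1761 to 1813. Such an order depends on the gene length used, which was 3523 bases for NCF1 and 3253 for CYBA in the deposited table against 1349 and 692 bases in their canonical transcripts. For CYBB these lengths were 4375 and 4276 bases, so the place of NCF1 beside CYBB holds for the deposited lengths only. The level of NCF1 also rests on the uncertain split of counts among its copies.

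Ratios of 2 genes within a sample do not depend on library scaling. The FPKM ratio of NCF1 to NCF4 was 0.177, 0.211 and 0.195 in scrambled cells and 0.556, 0.509 and 0.700 in NFIC KD cells. The groups did not overlap, and the difference was 1.59 on the log2 scale (exact two-sided permutation p = 0.1, the smallest that 3 against 3 samples allow, adjusted p = 0.3 over the 3 ratios computed). The ratio of CYBB to CYBA was 0.250, 0.200 and 0.243 against 0.253, 0.212 and 0.235 (exact permutation p = 0.9, adjusted p = 0.9). RAC2 and RAC1 rose by similar amounts, and their ratio was 1.47, 1.55 and 1.49 against 1.35, 1.43 and 1.53 (exact permutation p = 0.4, adjusted p = 0.6).

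**Figure D3:**
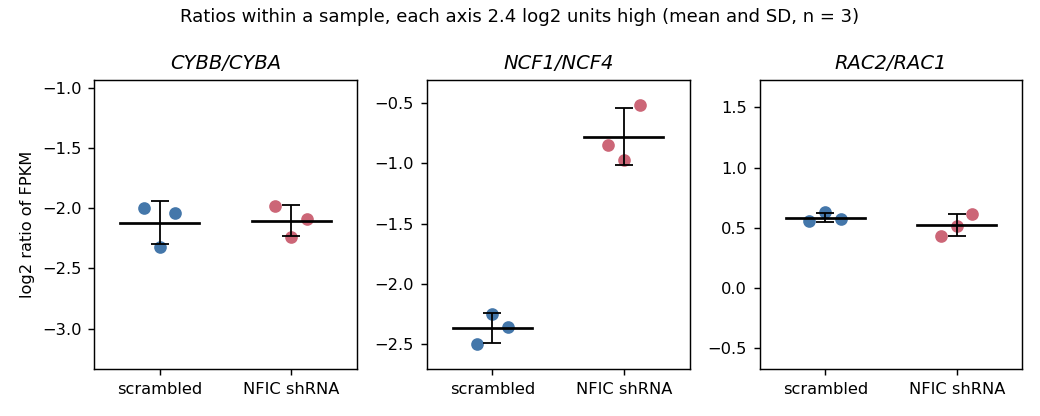
Log2 ratio of FPKM between both membrane subunits, between NCF1 and NCF4 and between both RAC genes, per sample (points; lines and bars are mean and SD, n = 3; the 3 axes span equal ranges). The NCF1/NCF4 ratio lies 1.59 log2 units higher in NFIC shRNA samples, while the other ratios overlap between the groups.

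The other genes of the oxidase family were taken from a list of 15, of which 11 were tested. Of these, 6 were higher, 4 were lower and 1 was not called, with a median log2 fold change of 0.19. Over all genes tested, 29.6% were higher and 30.3% were lower, and the counts of each list of related genes given here are to be read beside these shares.

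CYBC1, a chaperone needed for the CYBB and CYBA dimer, rose from 128 ± 2.33 to 184 ± 3.70 CPM (SD, n = 3; log2 fold change 0.53). RAC1 rose from 231 ± 8.97 to 325 ± 7.23 CPM (log2 fold change 0.49). RAP1A, a small GTPase found with flavocytochrome b558, rose from 82.9 ± 0.722 to 126 ± 2.22 CPM (log2 fold change 0.61). None of these genes overlapped between the groups. NRROS, a negative regulator of CYBB and CYBA protein, rose less, from 97.9 ± 4.10 to 112 ± 1.32 CPM (log2 fold change 0.19, edgeR adjusted p = 0.0047).

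Genes of the non-phagocyte oxidases were near the detection limit or low. DUOX1, a dual oxidase of epithelia, fell from 5.97 ± 0.358 to 1.76 ± 0.790 CPM (SD, n = 3; log2 fold change -1.78), and DUOX2 fell from 3.36 ± 0.735 to 1.55 ± 0.383 CPM (log2 fold change -1.11). Their maturation factor DUOXA1 fell as well (log2 fold change -1.16), and DUOXA2 was at 0.983 ± 0.172 and 0.632 ± 0.305 CPM (edgeR adjusted p = 0.149). Of the NOX1 partners, the NCF1-like organizer NOXO1 rose from 0.769 ± 0.0273 to 1.81 ± 0.490 CPM (log2 fold change 1.23), while the activator NOXA1 fell (log2 fold change -0.47, edgeR adjusted p = 0.0246). The call on NOXA1 was lost without scrambled replicate 1 (adjusted p = 0.173) or replicate 3 (0.0527) and without NFIC KD replicate 3 (0.0614). NOX1 and NOX5 were below the filter on low counts, and NOX3 and NOX4 were not found by symbol in the count table.

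**Figure D4:**
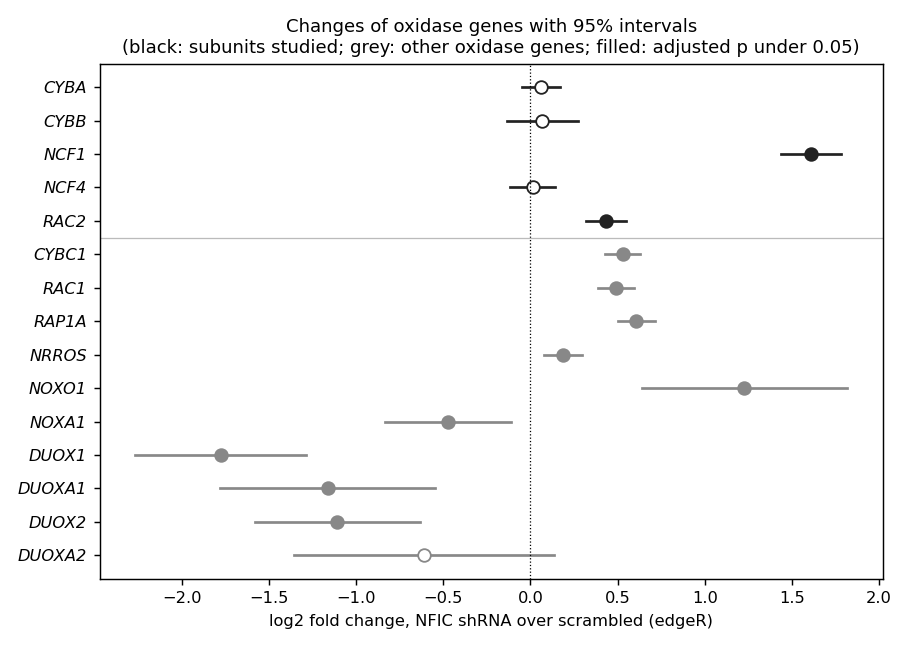
Log2 fold change of NFIC shRNA over scrambled (points) with its 95% interval (lines) for the 5 subunits, in black, and 10 other oxidase genes tested, in grey, from edgeR over 3 samples per group. Filled points passed an adjusted p of 0.05. NCF1 lies at 1.61, above the other genes shown, and DUOX1 lies lowest at -1.78.

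The start sites of NCF1 and CYBB were set side by side, because both genes are known targets of the myeloid factor PU.1 (SPI1) and CYBB did not pass the test while NCF1 rose. RefSeq promoters (GRCh38.p14, 250 bases before to 50 after the start) were held for CYBA, CYBB, NCF1 and CYBC1. Only 1 start per gene was used, and matches at other starts were not examined. For CYBC1, on the minus strand, the bases 82449727 to 82449826 just before that start lie inside the gene, which reaches 82450829 in GENCODE. Capitals mark the core letters GAGGAA, read on the opposite strand.
NCF1 (chr7:74773943-74773972, plus strand): gtcccgaccgcgacaaaagcgacTTCCTCt
CYBB (chrX:37779988-37780017, plus strand): tgccccagggctgctgttttcatTTCCTCa
The core begins 45 bases before the RefSeq start in NCF1 and 48 before it in CYBB. In CYBB the bases before the RefSeq start run to 37780058, past the GENCODE start at 37780018, so this distance depends on the start used. The core was found, on either strand, in 27.9% of the 35116 RefSeq promoters of this length. It was not found in the CYBA or CYBC1 promoter used. In CYBA, on the minus strand, the bases before the RefSeq start reach 88651054, past the GENCODE start at 88651083. Matches in CYBA thus also depend on the start used. The 250 bases before NCF1 were identical in NCF1B and NCF1C at all 250 positions. The NFI half-site TTGGC, present in 45.6% of promoters, occurred 1 time in CYBB and 0 times in CYBA, NCF1 and CYBC1. In CYBB it overlapped 1 of the 4 matches to CCAAT, a motif held by 34.6% of promoters. The letters GGAANNGAA of an ETS and IRF composite site, in 7.79% of promoters, occurred 1 time in CYBB, where they overlap the core, and 1 time in CYBC1, 30 bases past the start. GAAANNGAA, in 8.11% of promoters, occurred 1 time in NCF1 and 2 times in CYBB. CYBA held 6 matches to the SP1 letters GGGCGG, which 45.0% of promoters hold. No match was found in these promoters to the AP-1 letters TGANTCA (7.71% of promoters), the TATA letters TATAAA (11.5%) or the NFI palindrome (0.0285%). These matches describe letters only.

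Of 18 transcription factors linked to oxidase genes, all were tested, 9 were higher and 3 were lower, with a median log2 fold change of 0.17. IRF1, an interferon-induced activator, rose from 28.7 ± 0.598 to 61.9 ± 1.16 CPM (SD, n = 3; log2 fold change 1.11). CEBPE, a factor of late granulocyte maturation, rose from 6.51 ± 0.648 to 10.7 ± 0.680 CPM (log2 fold change 0.72). The coactivator CREBBP (log2 fold change -0.63), CEBPA (-0.51) and IRF8 (-0.18) were the ones that fell. SPI1 was at 164, 164 and 172 CPM in scrambled and 173, 189 and 173 CPM in NFIC KD cells. Its groups did not overlap, but the log2 fold change of 0.10 missed the threshold (SE 0.052, edgeR adjusted p = 0.112). The count of factors that were higher dropped to 5 without scrambled replicate 2.

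Kinases and lipases that act on assembly, which include the enzymes that phosphorylate NCF1, were 15 genes with 14 tested, of which 7 were higher and 2 were lower (median log2 fold change 0.16). PIK3CD and PIK3CG, catalytic subunits of class I phosphoinositide 3-kinases, rose by 0.66 and 0.70 on the log2 scale, and PRKCD, a kinase of NCF1, rose by 0.40. PLA2G4A, the cytosolic phospholipase A2, fell by 0.50 and PRKCA fell by 0.19.

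Regulators of the RAC switch, 17 genes with 14 tested, were higher in 8 cases and lower in 5 (median log2 fold change 0.21). The GTPase-activating proteins ARHGAP25 and ARHGAP15, which turn RAC off, rose by 1.03 and 0.55 on the log2 scale, and the exchange factor VAV1, which turns it on, rose by 0.50. The exchange factors PREX1, VAV3 and VAV2 fell by 0.74, 0.23 and 0.24. PREX1 went from 241 ± 7.45 to 144 ± 3.96 CPM (SD, n = 3) without overlap of the groups. Members that open and members that close the switch were thus found in the group that rose.

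Among 13 genes that handle the products and ions of the oxidase, 12 were tested, 2 were higher and 6 were lower (median log2 fold change -0.13). CLIC1 rose by 0.49 and the peroxidase GPX1 rose by 0.31 on the log2 scale. Catalase (CAT) went from 492 ± 2.23 to 316 ± 10.9 CPM (SD, n = 3), a log2 fold change of -0.64. PRDX6, a peroxiredoxin, fell by 0.55, and HVCN1, the proton channel that carries charge for the oxidase, went from 19.2 ± 0.731 to 14.8 ± 0.707 CPM, a log2 fold change of -0.38.

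Receptors that trigger the burst were 17 genes with 16 tested, 7 higher and 3 lower (median log2 fold change 0.28). The formyl peptide receptor FPR2 rose from 3.38 ± 0.313 to 17.2 ± 1.41 CPM (SD, n = 3; log2 fold change 2.34). The chains of the integrin Mac-1 moved apart, since ITGAM rose (log2 fold change 0.99) and ITGB2 fell (log2 fold change -1.49, edgeR adjusted p = 6.73e-13). SYK, the kinase below Fc receptors and integrins, rose by 0.61, and the Toll-like receptors TLR4 and TLR2 fell by 0.64 and 0.44 on the log2 scale.

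**Figure D5:**
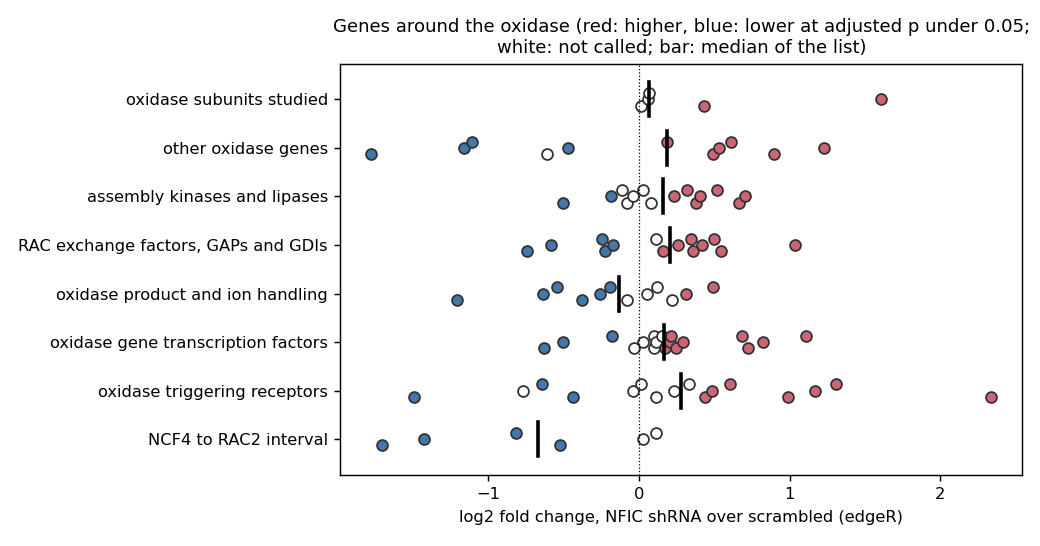
Log2 fold change of NFIC shRNA over scrambled for each tested gene of the 5 subunits and 7 lists of related genes (points, spread vertically to be seen; bars are list medians). Red points were higher and blue points lower at an adjusted p of 0.05, and white points were not called. Each list but that of the genes between NCF4 and RAC2 holds genes that were higher, and each but the subunits holds genes that were lower.

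NCF4 and RAC2 lie 347252 bases apart on chromosome 22, NCF4 from 36860988 to 36878017 on the plus strand and RAC2 from 37225270 to 37259594 on the minus strand, with 9 protein-coding genes between them. Of the 6 tested, 0 were higher and 4 were lower, beside 29.6% and 30.3% of all genes tested, with a median log2 fold change of -0.67. MPST fell from 56.6 ± 1.69 to 32.1 ± 3.28 CPM (SD, n = 3; log2 fold change -0.82), C1QTNF6 fell from 7.02 ± 0.0577 to 2.15 ± 0.311 CPM (-1.70) and IL2RB fell from 2.77 ± 0.189 to 1.03 ± 0.149 CPM (-1.42). So few genes are a description of this interval, and nothing is read from it about NCF4 or RAC2.

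For each subunit the protein-coding genes with the nearest profile over the 6 samples were found by the root mean square difference of log2 CPM, each gene centred on its own mean. They were HSD17B10 (0.0447) and IL6ST (0.0575) for NCF1, RBM22 (0.00998) and COPS2 (0.0178) for RAC2, ZNF160 (0.0146) and TTC39B (0.0162) for CYBA, TP53I3 (0.0419) and TAFA2 (0.0614) for CYBB, and UBXN6 (0.0187) and RBM5 (0.0283) for NCF4. IL6ST, the signalling chain of the interleukin-6 receptor family, was at 25.0, 25.4 and 25.1 CPM in scrambled and 74.4, 70.3 and 85.9 CPM in NFIC KD cells, where the third sample was again the highest. With 6 samples and 13800 genes such likeness is a description of these libraries.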

How the data were processed

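THP-1 mRNA from 3 scrambled and 3 NFIC KD samples was sequenced in pairs of reads from NEBNext Ultra libraries. Per the study's methods and the submitters' processing notes, the authors trimmed reads with Trim Galore, checked them with FastQC, used STAR for mapping to GRCh38 and featureCounts for counting on Ensembl genes; the deposited counts are not normalized. The deposited FPKM were made by the authors from counts, a factor per sample and the gene length. Versions and the strand setting are not given in the sources used here. The authors' own comparison and normalized counts, also in the table, were not used.

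The counts were tested with edgeR 4.0.16 in R 4.3.3 (TMM, filterByExpr, robust quasi-likelihood test, no block), with Benjamini-Hochberg adjustment over 19182 genes and a threshold of 0.05. The standard error was the log2 fold change divided by the square root of F. Replicates of a group differed beyond counting noise (chi-square per degree of freedom between 1.99 and 7.91), and no 2 samples were merged. Single ratios were compared with an exact permutation test. The alternatives were DESeq2 1.42.0, its size factors, upper quartile and total counts, limma 3.58.1 on log2(normalized counts + 1), no filter, at least 10 counts in every sample, protein-coding genes only, a replicate block, other thresholds and each sample left out. The tests were tried on simulated data. Positions came from GENCODE 44, matched by identifier for 33803 of 33981 genes.

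The subunits and the lists of related genes were chosen with earlier results of these data known. Named were the 5 subunits, each other oxidase gene with counts, NCF1B, NCF1C, NFIC, of each further list but the cell type markers up to 3 genes called in each direction with the smallest adjusted p, and 2 most alike genes per subunit. The marker lists are given by counts and summed levels, with few names. SPI1, ELANE, PRTN3, CAMP, MMP8, LTF, CD3D, HBB and NCF4-AS1 are not covered by the rule and were chosen with their values in view. SOD2 was left out because 2 rows carry its symbol. Some genes of the lists are not reported here by name, but they stay in the counts and medians of their lists.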

Additional observations from a re-analysis of the deposited data

How the results depend on the processing

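NCF1 and RAC2 stayed higher and past the threshold under each of the 15 alternative fits, with log2 fold changes of 1.51 to 1.68 and 0.37 to 0.47, and the summed NCF1 copies at 1.62 to 1.74. CYBA, CYBB and NCF4 stayed short of the threshold under all of them. With 1 sample left out, CYBB ranged from -0.0494, without scrambled replicate 2, to 0.145, and NCF4 from -0.0484, without scrambled replicate 2, to 0.0546 on the log2 scale. NCF4 was also negative, at -0.0185, without NFIC KD replicate 2 and, at -0.0429, with upper quartile normalization. With an absolute log2 fold change above 1 asked for as well, 1 subunit was higher and 2287 genes were called. Upper quartile normalization gave 4953 genes higher and 6503 lower, and 4 assembly kinases and lipases were lower with it. Among genes for products and ions, 1 was higher with protein-coding genes only, since GPX1 carries another type in the deposited table, and 2 to 4 were higher with 1 sample left out, 4 without scrambled replicate 2. Transcription factors that were higher numbered 5 to 10 with 1 sample left out, 5 of them without scrambled replicate 2. Genes between NCF4 and RAC2 that were higher numbered 0 to 1, 1 without NFIC KD replicate 3. DUOXA2 passed the threshold without NFIC KD replicate 2 (-1.02). Other than for GPX1, the cause was not tested. The log2 difference of the CYBB to CYBA ratio, 0.02 over all samples, ranged from -0.0842, without scrambled replicate 2, to 0.0849 with 1 sample left out, and was -0.0444 without NFIC KD replicate 1. Samples with the same replicate number did not deviate together (correlations of 0.0563, -0.0862 and -0.0446, with 0 of 3 samples closest to their own number). With the replicate number as a block, NCF1 was at 1.60 and RAC2 at 0.43, 10983 genes were called, and no call on a subunit changed. Depth limited DUOXA1, DUOXA2, NOXO1, NOX1 and NOX5, which had mean levels under 2 CPM, and no call was made on the last 2.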
